A study of Homo sapiens with 4 samples.

Results

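The noncoding snoRNA host genes described here are GAS5, SNHG1, SNHG5, SNHG6, SNHG7, SNHG8, SNHG12, SNHG15, SNHG16 and EPB41L4A-AS1. They were chosen by name, as the rows of a skipped exon table that carry these 10 gene symbols and junction reads that average at least 20 over the 4 libraries. Each row is 1 event, a middle exon that is included or skipped between 2 flanking exons, and a junction read is a read that crosses a splice junction. The table held 121 events of these genes among 65601, and 94 of the 121 passed the read minimum, among 54503 events that passed it in all. The 94 events covered 41 distinct exons, so many events share an exon or a junction and are not independent of each other. GAS5 supplied 55 of them, SNHG1 8, SNHG5 7, SNHG12 6, SNHG6 and SNHG8 5 each, SNHG15 and SNHG16 3 each, and SNHG7 and EPB41L4A-AS1 1 each. The 27 events under the minimum had a median of 4.25 reads per library, the deepest of them had 19.75 and the shallowest event that passed had 20.75.

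The cells were 293T, a human embryonic kidney line that takes up nucleic acids readily. In 1 group, 2 libraries came from cells transfected with a gapmer antisense oligonucleotide (ASO) against SNORD89 at 70 nM, and in the other 2 libraries came from cells labelled as having no ASO. A gapmer of the 5-10-5 MOE design is a strand with a DNA core and modified ends that directs RNase H to cleave the RNA it pairs with. The medium was changed at 24 h and RNA was taken at 48 h. The labels name no control ASO, and the cells without ASO carry the same transfection text, which leaves unclear whether they were given the lipid reagent. Nothing in the labels says that the 2 libraries of a group came from separate cultures. The spread between libraries, from which the tests take their error, may therefore be technical. The headers and labels leave unsaid which set received the ASO. All differences are therefore first set minus second set, and the numbers of the libraries within a set are names only.

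Small nucleolar RNAs (snoRNAs) guide chemical modification of ribosomal and other RNAs. Most human snoRNAs lie in introns, are cut out of the spliced intron, and so depend on splicing of a host transcript. In noncoding hosts the snoRNAs are the conserved part and the exons between them are short and poorly conserved; many such transcripts start with a pyrimidine tract and are degraded while being translated, by nonsense-mediated decay. C/D box snoRNAs guide 2′-O-methylation and H/ACA box snoRNAs guide pseudouridylation. GAS5, SNHG1, SNHG5, SNHG6 and SNHG16 host C/D box snoRNAs, whereas SNHG7, SNHG8, SNHG12, SNHG15 and EPB41L4A-AS1 host H/ACA box snoRNAs in the introns analysed here. SNORD89 itself lies in an intron of the protein-coding gene RNF149, not in any of these genes.

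The sequence of SNORD89 is shown because it is the RNA that the ASO was directed against. It is given as in the transcripts of GENCODE release 29 on GRCh38, 5′ to 3′ in DNA letters, with the C box and the D box in capitals.
SNORD89: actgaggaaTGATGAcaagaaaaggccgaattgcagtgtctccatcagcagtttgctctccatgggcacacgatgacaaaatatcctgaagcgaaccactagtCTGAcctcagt

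The exons on which the results below turn are shown next, from the same source. GAS5 is represented by its 23 nt exon and a 30 nt exon next to it, SNHG1 by its most variable exon, and SNHG15 by the 2 exons that share a skipping junction. The 2 exons of SNHG16 and the exon of SNHG8 are the ones with the lowest inclusion levels. In the exon of SNHG8 the capitals mark the 31 nt that remain when a downstream 3′ splice site is used in place of the upstream one.
GAS5 23 nt exon: gcagacctgttatcctaaactag
GAS5 30 nt exon: gactcagaattcatgattgaagaaatgcag
SNHG1 51 nt exon: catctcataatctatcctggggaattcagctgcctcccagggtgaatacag
SNHG15 70 nt exon: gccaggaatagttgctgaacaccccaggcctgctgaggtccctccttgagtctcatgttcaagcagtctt
SNHG15 77 nt exon: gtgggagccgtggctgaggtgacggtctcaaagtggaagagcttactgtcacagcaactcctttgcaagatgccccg
SNHG16 99 nt exon: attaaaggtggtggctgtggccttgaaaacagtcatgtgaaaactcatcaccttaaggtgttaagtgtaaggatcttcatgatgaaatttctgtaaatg
SNHG16 227 nt exon: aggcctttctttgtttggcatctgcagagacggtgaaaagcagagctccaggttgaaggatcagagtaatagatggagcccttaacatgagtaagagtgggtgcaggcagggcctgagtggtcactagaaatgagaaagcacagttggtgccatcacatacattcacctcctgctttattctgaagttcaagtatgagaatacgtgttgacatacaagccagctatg
SNHG8 194 nt exon: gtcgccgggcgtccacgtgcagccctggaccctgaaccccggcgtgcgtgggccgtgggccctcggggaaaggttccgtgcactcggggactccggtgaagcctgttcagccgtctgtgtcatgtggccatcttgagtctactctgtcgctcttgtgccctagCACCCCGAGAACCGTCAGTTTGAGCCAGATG

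The 4 libraries held 38613055 to 43929373 junction reads summed over events. Library 2 of the second set stood apart: it had no reads on 129 of the 54503 tested events, against 0 to 19 in the other libraries, and inclusion levels of the 2 libraries differed by more than 0.1 on 12.9% of events in the second set and on 7.72% in the first. For the larger differences named below, values with a library of the second set left out are given as well. Of the markers looked up for 293T cells, VIM had 3859 to 5561 junction reads per library and PAX2 had 52 to 89. No value was found for the 293T markers NEFM, NEFL and SOX11. None was found either for PTPRC (blood), ALB (liver) and INS (pancreas), looked up as markers of other cells. SNORD89 itself is not read by a skipped exon event, so its level was not measured here.

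None of the 94 host gene events was called as differently spliced. In the authors' deposited table, 0 of 94 had an FDR under 0.05 together with a difference in inclusion level of at least 0.1, against 2.71% of all 54503 tested events. The inclusion level is the fraction of transcripts that hold the exon, after the reads of each form are divided by its length. With no threshold on the difference, the FDR in the deposited table was under 0.05 for 3 of the 94 (3.19%), against 5.72% of all tested events, and the authors' p-value was under 0.05 for 9 (9.57%), against 14.3%. The quasi-binomial model takes as its error the scatter among libraries, pooled almost wholly over events of like depth. An event's own spread therefore hardly enters its p-value or its interval. At an unadjusted p under 0.05 the model gave 4 host gene events (4.26%), against 3.24% of all events. At an adjusted p under 0.05 it gave 0, against 0.00183% of all events. limma, fitted to the log2 ratio of the reads of both forms, likewise gave 0, against 0.0% of all events, and 3 (3.19%) at an unadjusted p under 0.05, against 4.87%. Without library 1 of the second set the quasi-binomial model passed 3 host gene events, the GAS5 23 nt, SNHG8 194 nt and SNHG15 70 nt exons, against 1.62% of all events. The smallest adjusted p of a host gene event was 0.861 in the quasi-binomial model and 0.955 in limma. Levels of the sets had no overlap for 25 of the 94 events (26.6%), against 22.8% of all events with reads in every library, so that share lay near the background.

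Most of the tested exons were included almost always. The mean inclusion level was above 0.95 in 79 of the 94 events (84.0%), against 66.1% of all tested events, and none lay under 0.05. The median absolute difference between sets was 0.00495 over the host gene events and 0.0114 over all tested events, and the host gene events had more reads, with a median of 455 per library against 190.0. They were also short, with a median exon length of 54 nt against 118 nt. The 95% interval of the difference lay within 0.1 of 0 in 82 of the 94 (87.2%), against 67.5% of all tested events. Skipping was so rare that 59 of the events had at most 10 skipping reads in the 4 libraries together and 68 had 0 in at least 1 library. These are descriptions of the set, and its depth and inclusion differ from those of other genes, so nothing particular to host genes follows from them.

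**Figure D1:**
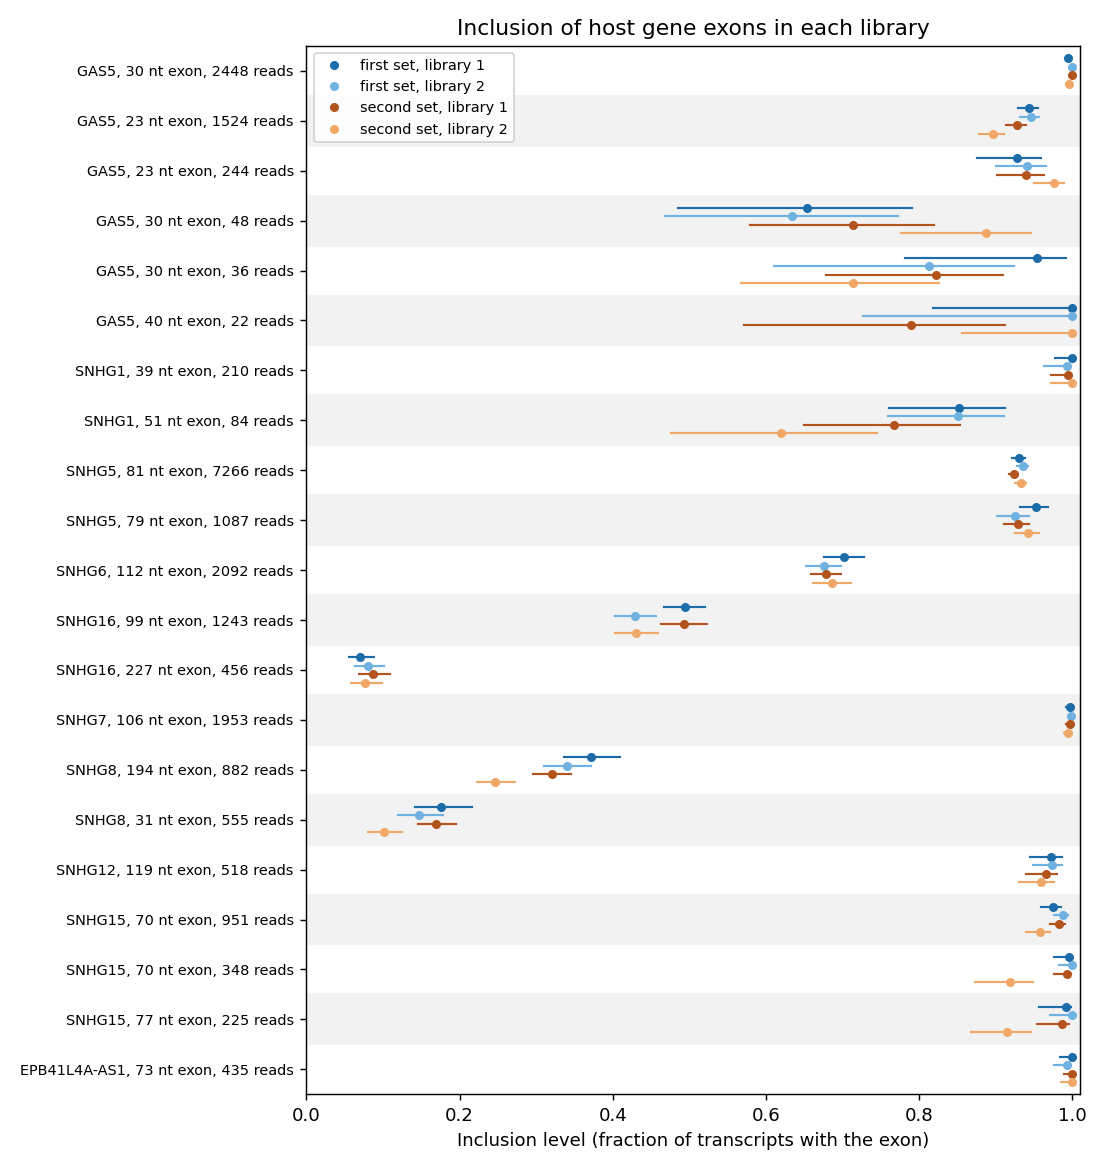
Inclusion level (x axis, fraction of transcripts with the exon) of the exons named in the text, 1 row for each event with its mean junction reads per library. Points are the 4 libraries and bars are 95% Wilson intervals of the read share, which cover counting error only; library 2 of the second set lies lowest for SNHG15, SNHG8 and the SNHG1 51 nt exon.

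GAS5 (ENSG00000234741.3), which hosts a series of C/D box snoRNAs and is known as a growth arrest transcript, spliced nearly all of its short exons in. Of its 55 events, 49 had a mean inclusion level above 0.95. The deepest event was the 30 nt exon at chr1:173835315-173835344 (hg19, minus strand), between the introns of SNORD77 and SNORD44, with 2021 to 3042 reads per library. Its level was 0.995 and 1.00 in the first set, against 1.00 and 0.996 in the second, a difference of -0.000639 that lies within the spread of either set.

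The 23 nt exon of GAS5 at chr1:173833622-173833644 had the lowest FDR in the gene. Its inclusion level was 0.944 and 0.946 in the first set, against 0.928 and 0.896 in the second, with between 1304 and 1844 reads behind each value. Skipping was supported by 64 and 67 reads in the first set, against 116 and 139 in the second, so the sets did not overlap. The difference was 0.0327 (95% interval 0.00472 to 0.0578), with an FDR of 0.0215 from the authors' deposited table and an unadjusted p of 0.0227 in the quasi-binomial model (adjusted p = 0.861). The unadjusted p from limma on the log2 ratio was 0.469. Without library 2 of the second set the difference was 0.0168, and without library 1 of that set it was 0.0486.

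A second event held the same 23 nt exon between other flanking exons, and its difference had the opposite sign. There the level was 0.928 and 0.941 in the first set, against 0.940 and 0.977 in the second, a difference of -0.0239 (95% interval -0.0833 to 0.0356), with an FDR of 0.672 in the deposited table. Without library 2 of the second set it was -0.00556, and without library 1 of that set -0.0423. Skipping of this form joined the 48 nt exon to an exon further upstream, by a junction with 43 reads in the 4 libraries. That junction leaves out the 23 nt exon, the 30 nt exon next to it and a 54 nt exon.

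The neighbouring 30 nt exon of GAS5, at chr1:173833813-173833842, had a mean inclusion level of 0.9992 in its deepest event, with a mean of 1459 reads. At low depth, 2 other events of this exon had larger differences, of opposite sign. In the first event, with a mean of 48 reads, its level was 0.654 and 0.634 in the first set, against 0.714 and 0.888 in the second, a difference of -0.157 (95% interval -0.419 to 0.0977). The skipping reads of this event are those of the junction with 43 reads above. It is therefore not independent of the second event on the 23 nt exon. In the second, with a mean of 36.2 reads, its level was 0.954 and 0.814 in the first set, against 0.823 and 0.714 in the second, a difference of 0.116 (95% interval -0.128 to 0.363). Both intervals include 0, and the deposited FDR values were 0.281 and 0.341. Without library 2 of the second set the differences were -0.0698 and 0.0613, and without library 1 of that set -0.244 and 0.170. Without library 1 of the first set the latter was 0.0454. The 40 nt exon at chr1:173835666-173835705 differed by 0.105 in an event with a mean of 21.8 reads. Its level there was 1.00 in 3 libraries and 0.789 in library 1 of the second set, where 4 of 23 reads skipped it. The difference was thus 0 without that library, and 0.211 without library 2 of the second set. In the deepest event of this exon, with a mean of 2049 reads, the mean level was 0.9998. These 3 low-depth events, 2 of the 30 nt exon and 1 of the 40 nt exon, and the SNHG1 event below have a difference of at least 0.1. They are the only host gene events that do, and they were named after their values were seen.

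**Figure D2:**
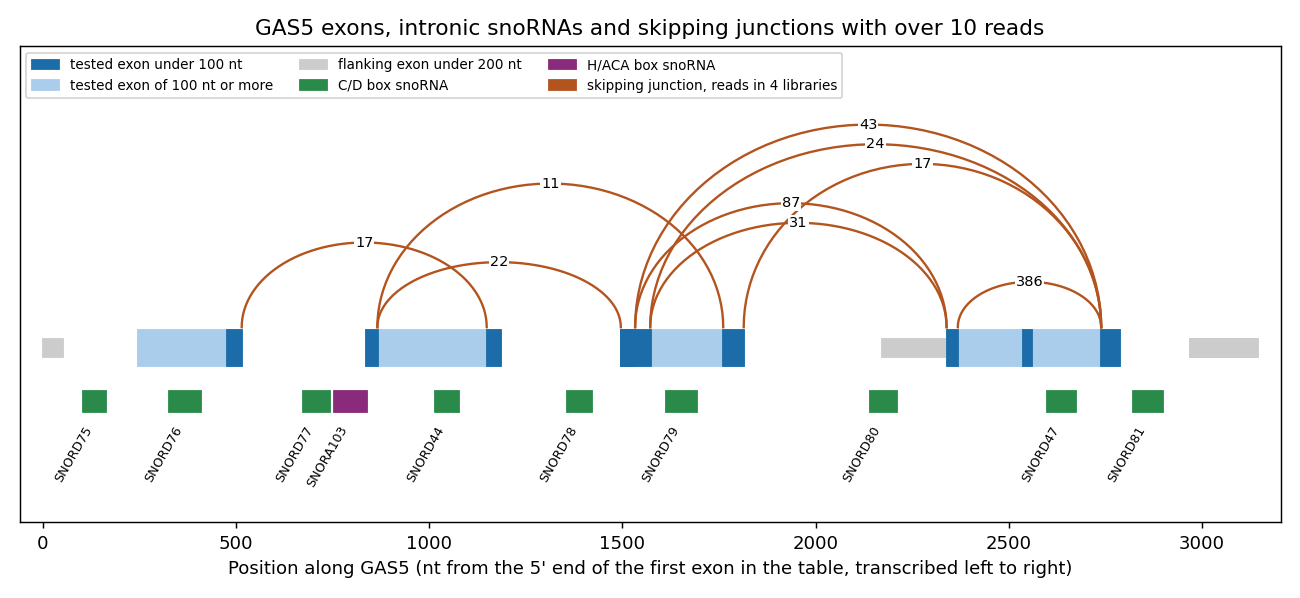
Map of GAS5 in nt from the 5′ end of its first exon in the table (x axis), with tested exons (dark blue under 100 nt, light blue for longer forms that keep an intron), flanking exons under 200 nt (grey), snoRNAs (C/D box green, H/ACA box purple) and the skipping junctions with over 10 reads in the 4 libraries together (arcs with their reads; arc height has no meaning). The junction over the 23 nt exon has 386 reads and the other 8 have 11 to 87.

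Skipping in GAS5 was concentrated on few junctions. The tested GAS5 events rest on 28 distinct skipping junctions, of which 19 had 10 reads or fewer in all. Over all host genes there were 57 such junctions, and 26 of them served 2 or more events. The 386 reads over the 23 nt exon were followed by 87 reads on the next most used GAS5 junction.

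SNHG1 (ENSG00000255717.2), host of SNORD26 to SNORD31, had few reads at skipped exons, between 26.8 and 210 per event. Its deepest event was the 39 nt exon at chr11:62621024-62621062 (hg19, minus strand), with levels of 1.00 and 0.994 in the first set, against 0.995 and 1.00 in the second. The 51 nt exon at chr11:62622360-62622410, between the introns of SNORD27 and SNORD28, was the most variable in the gene. Its level was 0.852 and 0.851 in the first set, against 0.767 and 0.620 in the second, from 51 to 105 reads. The sets did not overlap, but the difference of 0.158 had a 95% interval of -0.0481 to 0.338, and the deposited FDR was 0.111. Without library 1 of the second set the difference was 0.232, and without library 2 of that set 0.0843. Skipping reads were nearly level, at 12, 12, 14 and 16, whereas the total at the event was lowest in that library.

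SNHG5 (ENSG00000203875.6), host of SNORD50A and SNORD50B, had the deepest events of the group. Its 81 nt exon at chr6:86387513-86387593 (hg19, minus strand) was included at 0.931 and 0.936 in the first set, against 0.924 and 0.933 in the second, from 5163 to 10081 reads. The difference of 0.00509 had a 95% interval of -0.00816 to 0.0206, so a difference of 0.1 lies outside it. In 1 event the 79 nt exon at chr6:86387672-86387750 was included at 0.954 and 0.925 in the first set, against 0.930 and 0.943 in the second, with overlapping sets. The skipping junction of that event leaves out the 81 nt exon as well. In a deeper event, with a mean of 6017.5 reads and the 81 nt exon as a flanking exon, the mean level of the 79 nt exon was 0.9996.

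SNHG6 (ENSG00000245910.4), host of SNORD87, had 1 intermediate exon. The 112 nt exon at chr8:67834849-67834960 (hg19, minus strand) was included at 0.703 and 0.676 in the first set, against 0.679 and 0.687 in the second, from 1630 to 2901 reads. The second set lay within the range of the first, and the difference of 0.00636 had a 95% interval of -0.0392 to 0.0508. In the other 4 events of SNHG6 the mean inclusion level was above 0.95.

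SNHG16 (ENSG00000163597.10), host of SNORD1B and SNORD1C, had the most evenly split exon. The 99 nt exon at chr17:74555027-74555125 (hg19, plus strand) was included at 0.494 and 0.430 in the first set, against 0.493 and 0.431 in the second, from 1139 to 1397 reads. The 2 libraries within each set differed by far more than the means of the sets. The upstream 227 nt exon at chr17:74554456-74554682 was rarely included, at 0.0702 and 0.0804 in the first set, against 0.0867 and 0.0763 in the second. Its difference was -0.00619 (95% interval -0.0434 to 0.0297). In another event of the 99 nt exon, with the 227 nt exon as its upstream flank, the mean level was 0.988 from a mean of 394 reads. The even split thus belongs to the form without the 227 nt exon.

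Among the H/ACA hosts, SNHG8 (ENSG00000269893.2), host of SNORA24, had the largest difference at good depth. Its 194 nt exon at chr4:119200099-119200292 (hg19, plus strand) was included at 0.372 and 0.340 in the first set, against 0.320 and 0.247 in the second, from 627 to 1154 reads. The sets did not overlap, and the difference was 0.0726 (95% interval 0.00946 to 0.124). It missed the thresholds, with an FDR of 0.111 in the deposited table and an unadjusted p of 0.0212 in the quasi-binomial model (adjusted p = 0.861). Without library 2 of the second set the difference was 0.0357, and without library 1 of that set it was 0.109. The short 31 nt form at chr4:119200262-119200292, which uses the downstream 3′ splice site and the same skipping junction, was included at 0.176 and 0.146 in the first set, against 0.169 and 0.101 in the second, and its sets overlapped. Its difference of 0.0261 turned to -0.00791 without library 2 of the second set and was 0.0601 without library 1 of that set. Another tested event of the 194 nt exon, with a mean of 58 reads, had the opposite sign, with a deposited difference of -0.036.

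SNHG15 (ENSG00000232956.4), host of SNORA9, gave the remaining 2 events with an FDR under 0.05, and both were read from 1 skipping junction. The 70 nt exon at chr7:45023956-45024025 (hg19, minus strand) was included at 0.996 and 1.00 in the first set, against 0.993 and 0.919 in the second, with a deposited FDR of 0.0136. The 77 nt exon at chr7:45025620-45025696 was included at 0.992 and 1.00 in the first set, against 0.987 and 0.915 in the second, with a deposited FDR of 0.0063. Reads on the junction that leaves out both exons were 1 and 0 in the first set, against 2 and 16 in the second, so library 2 of the second set carried most of it. Without that library the differences were 0.00459 and 0.00906, against 0.0417 and 0.0449 with it. Without library 1 of the second set they were 0.0789 and 0.0808. A deeper event on the 70 nt exon, with another flanking exon and a mean of 951 reads, was included at 0.976 and 0.988 in the first set, against 0.983 and 0.958 in the second, with overlapping sets.

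The other 3 H/ACA hosts skipped little. The 106 nt exon of SNHG7 (ENSG00000233016.2) at chr9:139620763-139620868, between the introns of SNORA17A and SNORA17B, had levels of 0.998 and 0.999 in the first set, against 0.997 and 0.995 in the second, with 1 to 6 skipping reads per library. In SNHG12 (ENSG00000197989.9) the 119 nt exon at chr1:28907623-28907741 had levels of 0.973 and 0.973 in the first set, against 0.965 and 0.959 in the second. That difference of 0.0107 had a 95% interval of -0.0282 to 0.0494. The 73 nt exon of EPB41L4A-AS1 (ENSG00000224032.2) at chr5:111497400-111497472, next to the intron of SNORA13, had a level of 0.993 in library 2 of the first set and 1.00 in the other 3 libraries, where no skipping read was found.

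The snoRNAs lay beside nearly every tested exon. By RefSeq gene positions (GRCh38.p14), 65 of the 94 events had a snoRNA in both flanking introns, 28 had one in 1 intron, and 1, in SNHG5, had none. Mean inclusion was above 0.95 in 57 of the 65, in 21 of the 28 and in the 1 without. The median absolute difference was 0.00409 with a snoRNA in both introns and 0.00666 with one, and all 3 events with an FDR under 0.05 were among the latter. No test was run on this split, since the events of a gene share exons and reads.

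The C/D box snoRNAs kept a narrow distance to the end of their intron. Over 20 of them, the snoRNA's 3′ end lay 64 to 210 nt from the 3′ splice site, with a median of 74.5 nt, and 14 lay between 60 and 90 nt. SNORD47, in the intron downstream of the GAS5 23 nt exon, had the shortest distance, 64 nt in an intron of 179 nt. Over 8 H/ACA box snoRNAs the distance ran from 68 to 993 nt, with a median of 302 nt. SNORA24 of SNHG8 was the nearest at 68 nt and SNORA17B of SNHG7 the farthest at 993 nt. SNORA103 was left out because its annotated end reaches past the start of a GAS5 exon.

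**Figure D3:**
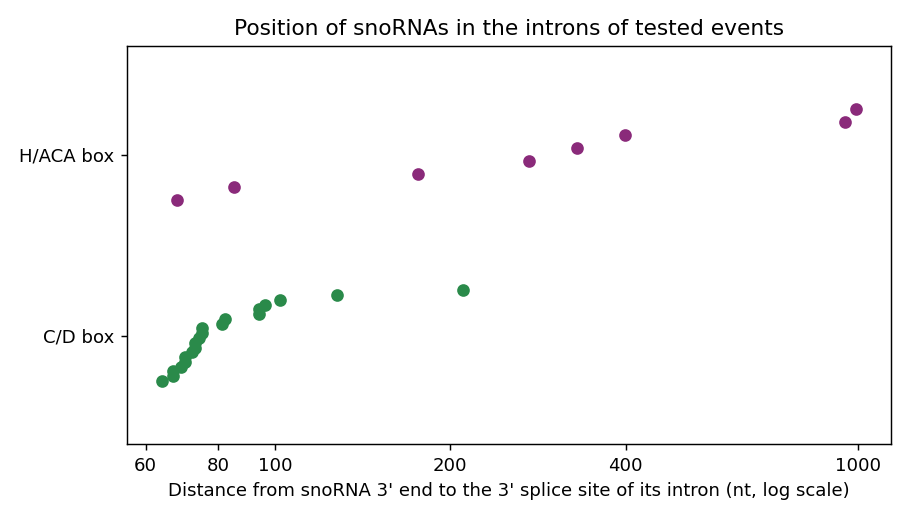
Distance in nt, on a log axis, from the 3′ end of each snoRNA to the 3′ splice site of the shortest intron of a tested event that holds it, 1 point for each snoRNA, spread vertically for legibility. The 20 C/D box snoRNAs gather near 74.5 nt, and the 8 H/ACA box snoRNAs range from 68 to 993 nt.

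Set against events of like depth, 6 of the 94 host gene events lay above the 90th percentile of the absolute difference of all tested events. This is a smaller share than that of all tested events, which the percentile itself sets, so the host gene events did not stand out as a group. The 6 included the SNHG8 194 nt exon, the GAS5 23 nt exon and the SNHG1 51 nt exon. From 500 to 1000 reads the 90th percentile was 0.0185, against 0.0726 for the SNHG8 exon. Among events with a mean inclusion level from 0.05 to 0.95, 15 were of host genes, with a median absolute difference of 0.0253 at a median of 456 reads. Over all 13401 such events the median difference was 0.0552 at 82 reads, and 11.0% were called, against 0 of the 15.

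**Figure D4:**
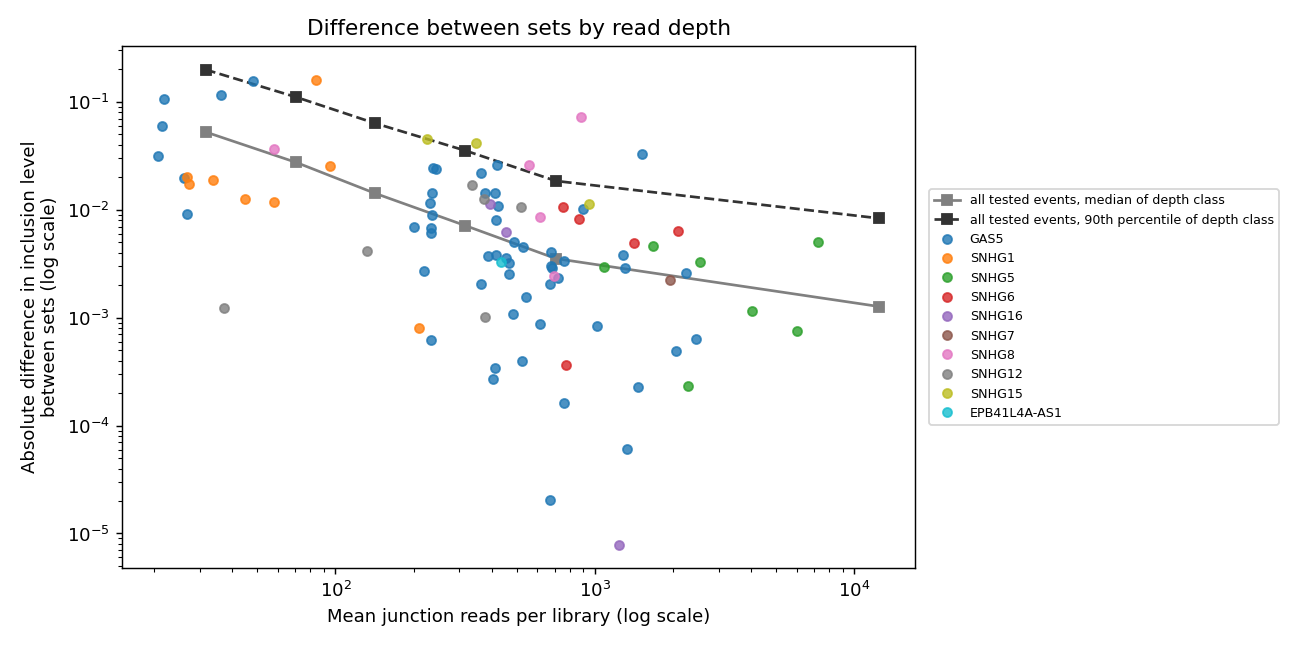
Absolute difference in inclusion level between sets (y axis, log scale) against mean junction reads per library (x axis, log scale), 1 point for each of the 94 host gene events; squares give the median and the 90th percentile of all tested events in 6 depth classes. Low-depth events reach 0.158, and most events above 1000 reads lie under 0.01.

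Junction read totals per gene were lower in the first set for most of the hosts, but this depended on how the libraries were scaled. Each total sums the inclusion and skipping reads of a gene's events and stands in for its level; a junction is counted once for each event that holds it. With libraries scaled by the median ratio over genes, limma-voom called 7 of the 10 genes lower in the first set at an adjusted p under 0.05 and 0 higher, against 19.0% of all 10903 genes lower and 19.6% higher. With libraries scaled by their sums, 0 were lower and SNHG1 was higher, against 2.98% and 35.1% of all genes. That scaling moved the median of all genes to 0.40 on the log2 scale, from 0.0072. Under either scaling, 9 of the 10 genes lay below the median gene, SNHG1 being the exception. In bulk samples fewer cells that express a gene and less RNA per cell cannot be told apart.

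The size of the gene differences is given with the median-ratio scaling, in reads per 1000000. SNHG8 had 42.2 and 62.1 in the first set, against 101 and 75.3 in the second, a log2 difference of -0.77 (SE 0.17, limma-voom adjusted p = 0.0021). SNHG5 had 383 and 546 in the first set, against 939 and 620 in the second, with a log2 difference of -0.74 (limma-voom adjusted p = 0.0030). Both genes were lower in each first-set library than in either second-set library. SNHG7 differed by -0.70, SNHG6 by -0.61, GAS5 by -0.54, SNHG15 by -0.47 and SNHG12 by -0.42 on the log2 scale. Their limma-voom adjusted p ran from 0.0021 to 0.045. Their sets did not overlap either, though SNHG6 had 130 in library 2 of the first set against 132 in library 2 of the second. The share of all genes without overlap was not counted, so the lack of overlap adds no support.

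GAS5, the most abundant by this measure, had 592 and 724 reads per 1000000 in the first set, against 1088 and 836 in the second. EPB41L4A-AS1, with a log2 difference of -0.43, did not pass (limma-voom adjusted p = 0.15). SNHG16 had 51.6 and 48.9 in the first set, against 54.0 and 49.0 in the second, a log2 difference of -0.033 (limma-voom adjusted p = 0.88). SNHG1 had 15.9 and 16.8 in the first set, against 17.5 and 10.2 in the second, a log2 difference of 0.30 (limma-voom adjusted p = 0.31) whose sign turns without library 2 of the second set. Totals also depended on single libraries. The median log2 difference of the 10 genes was -0.51 with all libraries. It was -0.40 without library 1 of the first set and -0.66 without library 2 of that set. For the second set it was -0.27 without library 1 and -0.71 without library 2. The median over all genes stayed between -0.0061 and 0.018. The number of calls changed as well, for the hosts and for all genes, but such fits leave 1 library in a set. With only the deepest event of each gene, limma-voom called 5 of the 10 genes lower, against 1660 of all 10726 genes. The calls of SNHG12 (limma-voom adjusted p = 0.27) and SNHG15 (limma-voom adjusted p = 0.062) were then lost.

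**Figure D5:**
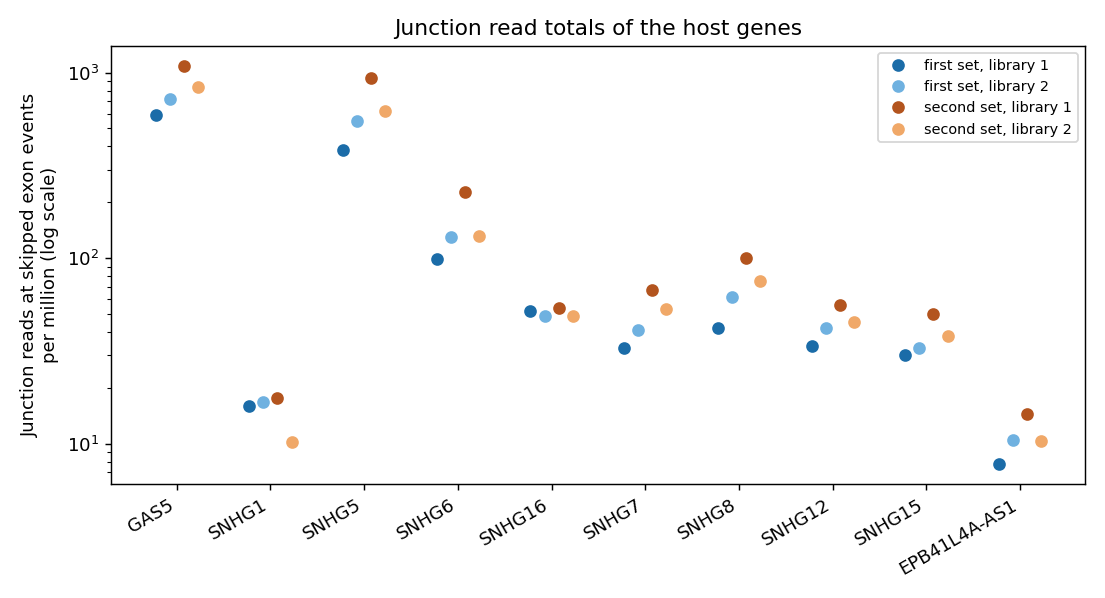
Junction reads at skipped exon events per 1000000 (y axis, log scale, median-ratio scaling) for each host gene, 1 point for each library. Library 1 of the first set is lowest and library 1 of the second set highest in GAS5, SNHG5, SNHG6, SNHG7, SNHG8, SNHG12, SNHG15 and EPB41L4A-AS1, whereas SNHG16 is level and SNHG1 is lowest in library 2 of the second set.

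Because many snoRNA hosts are known to start with a pyrimidine tract, the 40 bases around the RefSeq start of each gene (GRCh38.p14) were examined, a choice made after the values were seen. The table of promoters held 8 of the 10 genes. The longest run of C or T is in capitals below for the genes with a run of at least 6, and the start lies after base 20. Where runs tie, as the 2 runs of 7 in SNHG1 do, the first is marked.
SNHG12, chr1:28581854-28581893, minus strand: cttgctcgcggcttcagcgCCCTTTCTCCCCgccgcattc
SNHG7, chr9:136728165-136728204, minus strand: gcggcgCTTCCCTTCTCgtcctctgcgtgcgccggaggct
SNHG16, chr17:76557744-76557783, plus strand: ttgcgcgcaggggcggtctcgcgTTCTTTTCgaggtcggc
SNHG1, chr11:62855866-62855905, minus strand: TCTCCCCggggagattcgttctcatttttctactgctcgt
SNHG5, chr6:85678714-85678753, minus strand: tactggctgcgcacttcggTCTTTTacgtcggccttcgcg
SNHG8, chr4:118278742-118278781, plus strand: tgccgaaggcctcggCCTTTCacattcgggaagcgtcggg
A run of at least 6 was found in these 6 of 8 genes and in 38.8% of all 35116 promoters, on the strand of the gene. A run of at least 7 was found in 4 of the 8, against 25.6%, and of at least 8 in 3, against 17.5%. The marked runs of SNHG7 and SNHG1 end before the start, so the transcript does not hold them. The other run of 7 in SNHG1 lies after the start. GAS5 and EPB41L4A-AS1 had a longest run of 4 in this window. A run is a description of these letters and not a measured start site.

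Other snoRNA hosts were read by the same rules. Of 22 further noncoding hosts listed, 4 were tested, with 16 events, of which 0 were called and 1, in C6orf48, had an FDR under 0.05. Of 46 protein-coding hosts, 45 were tested, with 376 events; 1 was called (0.266%) and 3 had an FDR under 0.05 (0.798%), against the backgrounds of 2.71% and 5.72%. The called event, in IPO7, had a mean of 21 reads and rests on library 2 of the second set, at 0.484 against 0 to 0.015 in the others. Gene totals were lower in the first set for 28 of the 45 coding hosts and higher for 4 with median-ratio scaling, and lower for 16 and higher for 10 with library sums. RNF149, the host of SNORD89, differed by 0.21 on the log2 scale (SE 0.24, limma-voom adjusted p = 0.51). It had 9.31 and 9.35 reads per 1000000 in the first set, against 9.32 and 7.01 in the second. Leaving out library 2 of the second set gave a log2 difference of -0.0015, and leaving out library 1 of that set gave 0.41.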

How the data were processed

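Polyadenylated RNA of 4 libraries of 293T cells was sequenced, per the labels. The authors deposited 1 table in the layout of rMATS for skipped exons, counted on junction reads, per the file headers; the submitters' processing notes name cutadapt, STAR and hg19, and versions are not given in the sources used here. The deposited table holds read numbers and inclusion levels, 2 libraries joined in a cell, a p-value and FDR per event, and the difference between sets as a score from -1 to 1. Coordinates are those of the table with 1-based starts.

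Member genes, gene lists and tests were chosen with earlier results of these data known. Named exons are, for each gene, the event with most reads and up to 3 events with a mean inclusion level from 0.05 to 0.95 and at least 100 reads, plus those said to be chosen after their values were seen. Differences were tested over all 54503 events with a quasi-binomial model, whose dispersion was moderated with limma 3.58.1 (R 4.3.3) and never set under 1, and with limma on the log2 ratio with a pseudocount of 0.5; p-values were adjusted by Benjamini-Hochberg. The quasi-binomial model was tested on simulated data, and its prior was revised there until known changes were recovered; the version used, with a trend on depth, is the third, and it still made some false calls where scatter between libraries was added. Gene totals were tested with limma-voom on genes with at least 10 reads in 2 libraries. This replaced a count test planned for whole-number columns, because the reads are joined in cells. Intervals are 95%, by Wilson's method for single libraries and from the quasi-binomial model for differences. A printed difference is between the mean library levels of the sets, whereas its interval is centred on the difference of pooled reads. The interval is therefore not centred on the printed difference. Reads without molecular identifiers are not independent molecules, so Wilson intervals cover counting error only. All 94 events were matched to GENCODE release 29 by exon spacing, for sequences and snoRNA positions; no coordinate was converted. Alternatives were other read, difference and FDR thresholds, priors, scalings and filters, and leaving out each library.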

Additional observations from a re-analysis of the deposited data

How the results depend on the processing

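The count of 0 called host gene events from the deposited table was the same under read minimums of 10 and none and a difference threshold of 0.05. With no difference threshold, chosen after seeing the data, it was 3. A read minimum of 50, a difference threshold of 0.2, an FDR under 0.01 and 1 event per exon also gave 0. Each of these only narrows the rule, so their result was fixed in advance. limma with either pseudocount passed 0 of all tested events, so its 0 says nothing particular to host genes. With no called event there was none to follow through the libraries. The quasi-binomial count of 0 was the same under the other read minimums, with the dispersion not held at 1, and with 2 priors without a trend, chosen after seeing the data. Each of these settings passed only 1 or 2 of all tested events. Leaving out single libraries gave 0 to 3: without library 1 of the second set the GAS5 23 nt, SNHG8 194 nt and SNHG15 70 nt exons passed, with 1.62% of all events, and the lone second-set library is then assumed to vary like the first set. Leaving out single libraries gave 0 to 8 genes with lower totals and 0 to 1 with higher totals; scaling by library sums gave 0 lower and 1 higher, the deepest event of each gene alone 5 lower and 0 higher, and no filter on low counts 7 lower and 0 higher. The total of SNHG1 turned to -0.14 with the deepest event only and ran from -0.10 without library 2 of the second set to 0.68 without library 1 of that set. That of SNHG16 turned to 0.36 with library sums, 0.077 with the deepest event only, 0.012 without library 2 of the first set and 0.034 without library 1 of the second set, and ran from -0.11 to 0.034 over the left-out libraries. The cause was not tested. A count model with its own size factors was not run. No paired analysis was possible because the columns of the table carry no replicate numbers. Depth limits the GAS5 and SNHG1 events under 100 reads, such as the SNHG1 51 nt exon with its interval from -0.0481 to 0.338.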
